A study of Mus musculus with 16 samples.

Results

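Collagens are the proteins that give tissue its tensile framework, and each is a trimer of alpha chains that wind into a triple helix. The genes measured here encode those chains: 42 of the 19505 named genes on the arrays have a symbol made of Col, a type number and a chain number, and all 42 were kept, each with its only probe set. They comprise 11 chains of fibrillar types, 6 of the basement membrane type IV, 3 of network types, 8 of fibril-associated types, 6 of the beaded filament type VI, 2 multiplexins, 4 transmembrane chains and 2 others. Col7a1, Col12a1 and Col21a1 were not analysed here.

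Hearts came from 10-week-old male wild-type C57BL/6 mice. The left anterior descending coronary artery was ligated for 30 min and reperfused for 6, 24 or 72 h, and sham-operated mice were the controls, with 4 hearts and 4 arrays in each of the 4 groups. The labels name the tissue as heart, without saying which part of it, so injured and uninjured muscle cannot be told apart. All 8 cardiomyocyte markers examined lay above background in every group.

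In muscle, fibrillar types I and III form the bulk of the interstitial fibres, type V takes part in starting the fibrils, type IV forms the sheet of the basement membrane around capillaries and muscle cells, and type VI forms beaded microfilaments between them. Fibroblasts are known as the main source of fibrillar collagen in the heart, and scar formation after infarction depends on it. Type IV chains are made by endothelial cells, smooth muscle cells and others.

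Signals are given as the authors' deposited log2 values, on which a difference of 1 is a doubling. A level is called below background when it lies under 6.76, the value that 75% of the 5222 negative controls do not exceed, because the table has no detection calls. By that measure 18 of the 42 chains reached background in the mean of at least 1 group, and 24 did not in any. Changes are differences of group means ± SE from the limma fit, with n = 4 arrays per group and p-values adjusted by Benjamini-Hochberg over 19505 genes, and a gene is called at an adjusted p under 0.05.

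The upstream sequences of 3 fibrillar chains are shown first, because these chains rose in the same groups. RefSeq promoter windows in build GRCm38.p6 were matched to 34 of the 42 members, in 37 windows. Col1a1 and Col5a2, which also rose at 24 and 72 h, are not among the 34 and are not shown. The 250 bases before the annotated start are printed 5′ to 3′ for Col1a2 (chr6:4505368-4505617, plus strand), Col3a1 (chr1:45311288-45311537, plus strand) and Col5a1 (chr2:27886175-27886424, plus strand), with matches to the searched motifs in capitals.
Col1a2: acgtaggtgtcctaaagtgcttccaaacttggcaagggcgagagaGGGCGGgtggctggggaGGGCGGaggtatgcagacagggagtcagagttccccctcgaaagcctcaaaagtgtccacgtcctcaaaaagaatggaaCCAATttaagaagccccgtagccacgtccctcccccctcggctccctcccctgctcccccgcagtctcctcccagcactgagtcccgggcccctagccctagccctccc
Col3a1: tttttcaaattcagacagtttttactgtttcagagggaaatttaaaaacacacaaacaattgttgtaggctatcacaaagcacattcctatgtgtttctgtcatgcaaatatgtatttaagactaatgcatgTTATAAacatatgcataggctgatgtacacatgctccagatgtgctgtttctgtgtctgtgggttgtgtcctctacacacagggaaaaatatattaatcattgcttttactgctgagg
Col5a1: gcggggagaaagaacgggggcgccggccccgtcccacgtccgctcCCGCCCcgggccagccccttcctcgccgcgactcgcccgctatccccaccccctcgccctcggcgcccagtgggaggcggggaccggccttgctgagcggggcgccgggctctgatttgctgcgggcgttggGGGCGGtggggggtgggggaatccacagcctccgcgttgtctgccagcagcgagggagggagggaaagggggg

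Both strands were searched for the TATA box core TATAA, the CCAAT box, the GC box core GGGCGG and the AP-1 core TGANTCA. A match to the TATA box core can overlap a match to its own reverse complement. Col1a2 held CCAAT at position -109 and GGGCGG at -205 and -188, counted from the annotated start. Col3a1 held the TATA box core on both strands at -118 and -117. Col5a1 held GGGCGG at -205 on the opposite strand and at -73. None of the 4 motifs was thus in all 3 windows, while GGGCGG was in those of both Col1a2 and Col5a1. Whether any motif goes with the rise of the transcripts was not tested. CCAAT was in a window of 12 of the 34 members and in 33.8% of all 32851 windows of this length, GGGCGG in 20 members and 32.7% of all windows, TATAA in 7 members and 22.8%, and TGANTCA in 1 member, Col6a1, and 6.75%. Members were counted if any of their windows held the motif, so the counts and the shares of single windows are unlike measures. A match is a description of these letters and is not shown to be a binding site.

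The chromosomal order of the genes gave a second feature that the choice of members did not use. In the RefSeq gene table of GRCm38.p6, 8 pairs of members are next to each other among protein-coding genes. Both genes were higher at 72 h in 3 pairs (Col3a1 with Col5a2, Col6a2 with Col6a1 and Col4a1 with Col4a2), 1 of the 2 in 1 pair (Col6a6 with Col6a5), and neither in 4 pairs. These counts are to be read beside the 38.1% of the 42 members and 11.5% of all genes that were higher at 72 h. Whether neighbours moved together more than other members was not tested. The 72 h calls of Col4a1 and Col4a2 were close to the threshold and were lost under some alternatives. The Col4a1 window (chr8:11312777-11313076, minus strand) and the Col4a2 window (chr8:11312555-11312854, plus strand) overlap by 78 bases, head to head, so these type IV genes start from a shared stretch of chromosome 8. The neighbouring Col4a3 and Col4a4, also type IV, were called in no comparison, but their group means were all below background. Their missing calls therefore do not show that they were unchanged, and Col4a3 passed as lower at 24 h under some other scalings.

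Over the 42 chains, calls against sham went from few and mixed at 6 h to many and all upward at 72 h. At 6 h, 2 chains were higher (Col4a1 and Col4a2) and 1 was lower (Col3a1), beside 7.92% of all genes tested called higher and 12.3% lower. At 24 h, 11 were higher and 0 lower, beside 13.8% and 12.3% of all genes. At 72 h, 16 were higher and 0 lower, beside 11.5% and 10.3%. At an unadjusted p under 0.05 in the same limma fit, 2 and 1 chains were lower at 24 and 72 h. The median change of the 42 chains was 0.00, -0.03 and 0.22 at the 3 times, and of all genes -0.04, -0.07 and -0.09. The other 26 chains passed at no time against sham, and of these 26 only Col8a2, Col11a2, Col16a1 and Col28a1 reached background in any group. The 3 comparisons use the same sham arrays, so they are not independent of each other. In bulk RNA from heart tissue, fewer or more cells of a type and less or more RNA per cell cannot be told apart, for any of these changes.

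**Figure D1:**
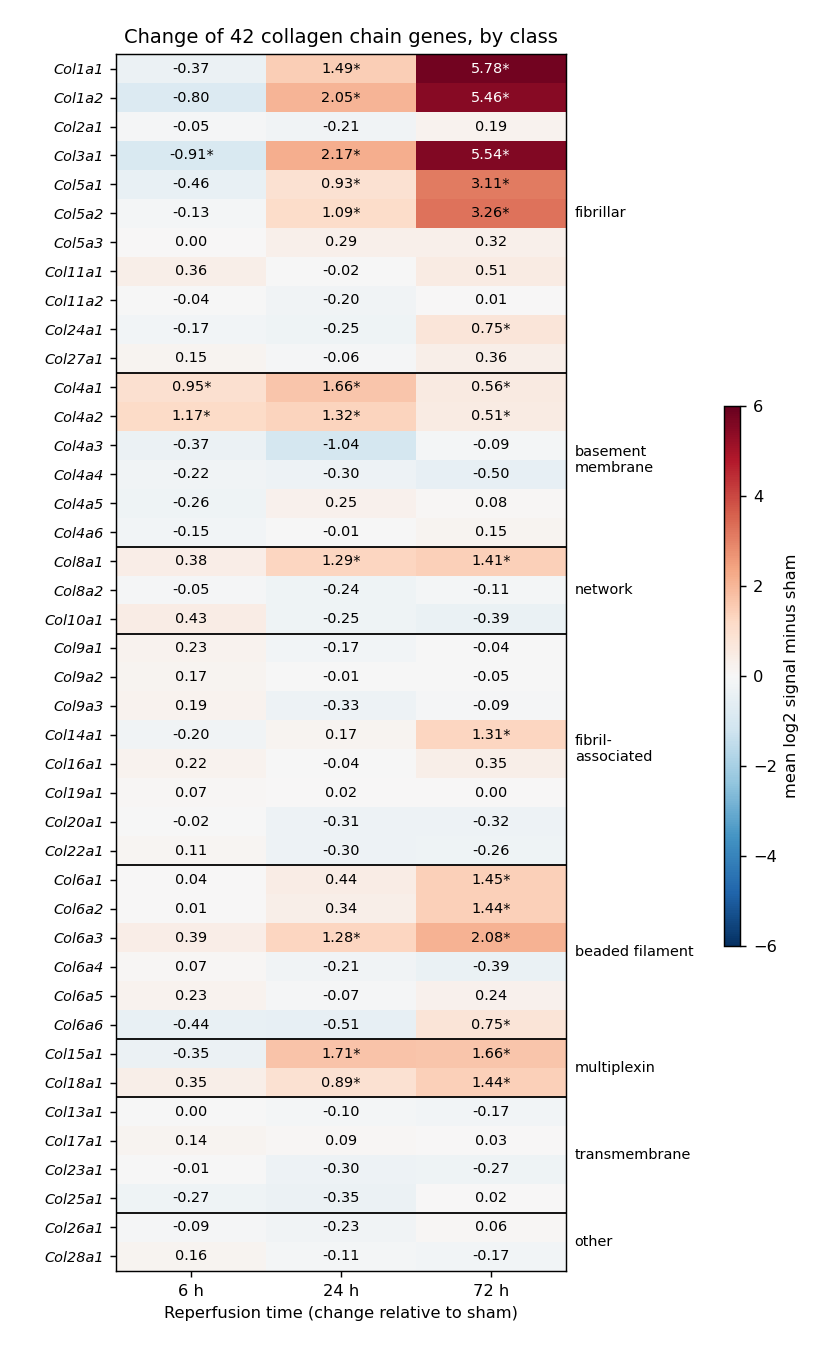
Change of each of the 42 chains relative to sham (colour and printed value, mean log2 signal minus sham, 4 arrays per group) at 6, 24 and 72 h of reperfusion, grouped by class, with an asterisk where the limma adjusted p is under 0.05. The deepest colours are Col1a1, Col3a1 and Col1a2 at 72 h, with 5.78, 5.54 and 5.46, while the Col4a1 and Col4a2 rows are coloured at 6 and 24 h and paler at 72 h.

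The counts of calls depended on the scaling at 6 h and at 72 h. The medians of the deposited arrays lay close together, between 5.84 and 5.95. Centring on the hybridization spike-ins, RNAs added late in the protocol, moved the median of all genes to -0.26, 0.24 and 0.40 at the 3 times. With the poly-A spike-ins, added to the RNA before labelling, as the reference it moved to -0.37, -0.16 and 0.09, and centring on the array median to -0.01, -0.14 and -0.20. At 6 h the split of 2 higher and 1 lower became 2 and 4 under the hybridization spike-ins (with Col1a2, Col5a1 and Col6a6 added) and 2 and 7 under the poly-A spike-ins (Col1a1, Col1a2, Col25a1, Col3a1, Col4a4, Col5a1 and Col6a6). At 72 h the split of 16 higher and 0 lower became 26 and 0 under the hybridization spike-ins, 16 and 0 under the poly-A spike-ins, and 13 and 1 under median centring, which lost Col4a1, Col4a2 and Col6a6 and added Col4a4 as lower. Under quantile normalization it stayed 16 and 0, of which 15 were the same genes, with Col4a1 lost and Col11a1 gained. The 11 chains higher at 24 h were called higher under all 4 of these scalings, and Col4a3 was called lower there under 3 of them.

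Type I collagen, the main protein of tendon, bone and scar, is a trimer of 2 chains from Col1a1 and 1 from Col1a2. Both transcripts rose at 24 h and rose again from 24 to 72 h, and at 72 h these 2 and Col3a1 had the largest changes among the 42 chains. Col1a1 signal was 7.65, 7.52, 7.58 and 7.78 on the sham arrays and 6.98, 7.62, 7.44 and 7.01 at 6 h. It was 9.72, 9.13, 8.84 and 8.83 at 24 h and 13.92, 13.49, 12.84 and 13.37 at 72 h. The sham and 6 h arrays overlapped, and every 24 h and every 72 h array lay above both. Col1a1 changed by -0.37 ± 0.22 at 6 h (limma adjusted p = 0.301), rose by 1.49 ± 0.22 at 24 h (5.19e-05) and by 5.78 ± 0.22 at 72 h (4.64e-12), which is 54.8-fold on the authors' scale. From 24 to 72 h alone it rose by 4.28 ± 0.22 (7.38e-10).

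Col1a2 signal was 8.83, 8.70, 8.74 and 9.47 in sham and 7.33, 8.84, 8.83 and 7.52 at 6 h. It was 11.46, 10.92, 10.65 and 10.89 at 24 h and 14.77, 14.62, 13.81 and 14.37 at 72 h. The 6 h arrays fell into a low pair, replicates 7 and 11, and a pair at the sham level, replicates 8 and 10. Col1a2 changed by -0.80 ± 0.31 at 6 h (limma adjusted p = 0.0821), and it passed as lower with array weights (-0.90, 0.041), under both spike-in scalings (-1.02 and -1.14), without 6 h replicate 8 (-1.04, 0.0256) or without 6 h replicate 10 (-1.04, 0.0303). It rose by 2.05 ± 0.31 at 24 h (6.64e-05) and by 5.46 ± 0.31 at 72 h (5.56e-10), or 43.9-fold.

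Col3a1 encodes the only chain of type III collagen, the pliable fibrillar type found with type I in vessel walls and early scar. Its signal was 9.92, 9.59, 10.21 and 10.84 in sham and 8.98, 9.68, 9.64 and 8.63 at 6 h. It was 12.91, 12.07, 11.79 and 12.49 at 24 h and 16.17, 15.57, 15.39 and 15.58 at 72 h. Replicates 7 and 11 were again the lowest at 6 h, as they were for Col1a1 and Col1a2, and the other pair lay just above the lowest sham array. Col3a1 was the only chain lower at 6 h, by -0.91 ± 0.29 (limma adjusted p = 0.0304), and this call was lost without sham replicate 4 (-0.88, 0.069), without sham replicate 5 (-0.67, 0.121), without 6 h replicate 7 (-0.82, 0.0854) or without 6 h replicate 11 (-0.71, 0.109). It rose by 2.17 ± 0.29 at 24 h (1.49e-05) and 5.54 ± 0.29 at 72 h (1.9e-10), or 46.5-fold.

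Type V collagen, a minor fibrillar type that takes part in fibril initiation and diameter, rose in both of its better known chains. Col5a1 signal was 4.40, 4.00, 4.58 and 4.49 in sham, 4.05, 3.96, 3.98 and 3.64 at 6 h, 5.88, 5.09, 5.01 and 5.22 at 24 h, and 8.19, 7.46, 7.01 and 7.26 at 72 h. Col5a2 signal was 4.44, 4.58, 4.41 and 4.75 in sham, 4.25, 4.50, 4.65 and 4.26 at 6 h, 5.91, 5.25, 5.97 and 5.42 at 24 h, and 8.33, 7.60, 7.12 and 8.18 at 72 h. For both genes every array was below background until 72 h, when every array was above it. Col5a1 rose by 0.93 ± 0.23 at 24 h (limma adjusted p = 0.00462) and 3.11 ± 0.23 at 72 h (1.19e-08). Col5a2 rose by 1.09 ± 0.23 (0.00119) and 3.26 ± 0.23 (6.17e-09). Measured from the background level instead of from the dim sham signal, the 72 h means were at least 1.64-fold higher for Col5a1 and at least 2.06-fold for Col5a2.

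**Figure D2:**
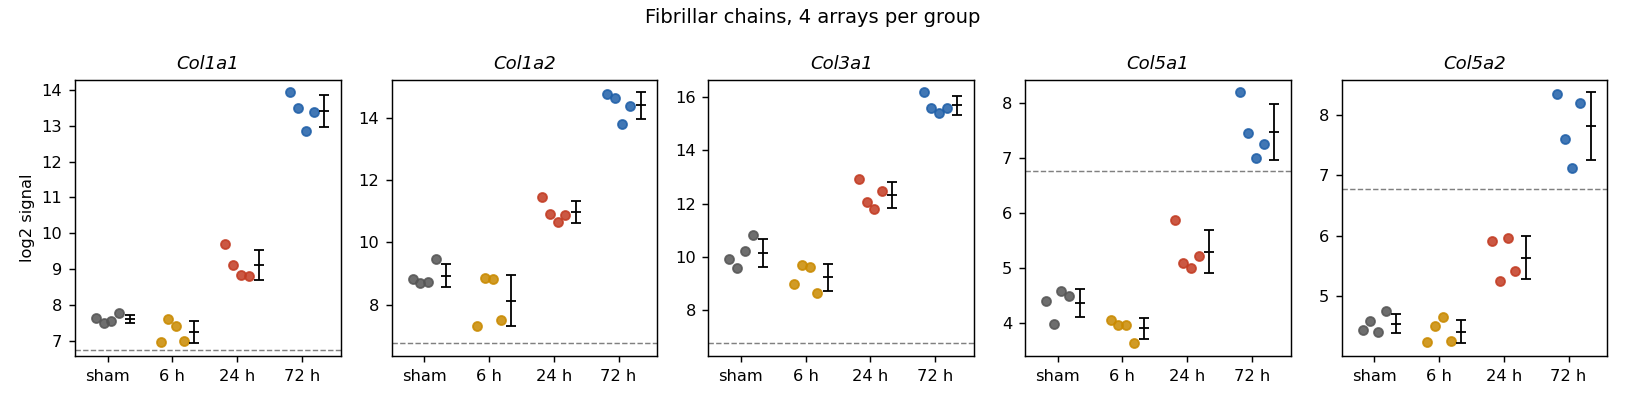
Log2 signal of 5 fibrillar chains on each array (points, 4 per group, each panel with its own axis), with the group mean and SD beside them in black and the background level of 6.76 as a dashed line. In every panel the 72 h points lie above all others and the 24 h points above sham and 6 h, and in the Col1a2 panel the 6 h points split into 2 low and 2 at the sham level.

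Few of the other fibrillar genes were called. The type V chain Col5a3 changed by 0.00, 0.29 and 0.32 at the 3 times and was not called. Col24a1, a minor fibrillar chain, was higher at 72 h by 0.75 ± 0.22 (limma adjusted p = 0.019) at a mean of 4.47, below background, and lost the call without sham replicate 3 (0.67, 0.0617), without 72 h replicate 20 (0.59, 0.0795) or without 72 h replicate 23 (0.62, 0.0747). The cartilage-associated chains Col2a1, Col11a1 and Col11a2 and the chain Col27a1 were called at no time, with 72 h changes of 0.19, 0.51, 0.01 and 0.36. Of these 4 only Col11a2 lay above background, with group means of 7.06 to 7.27. None of 6 cartilage markers reached background in any group. Across the 11 fibrillar chains, 0, 5 and 6 were higher at the 3 times, with median changes of -0.13, 0.29 and 0.75.

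Type IV collagen has 6 chain genes, and the common trimer of vessels and muscle is made from Col4a1 and Col4a2. This pair was called higher at every time, at 72 h close to the threshold. Both means were highest at 24 h, although for Col4a2 the 24 h level was not called apart from that at 6 h. Col4a1 signal was 7.67, 7.88, 7.32 and 8.01 in sham and 8.62, 8.85, 8.85 and 8.36 at 6 h. It was 9.45, 9.47, 9.78 and 8.81 at 24 h and 8.38, 8.22, 8.08 and 8.43 at 72 h. Every injured heart lay above every sham heart, and the 72 h arrays lay below every 24 h array. Col4a1 rose by 0.95 ± 0.20 at 6 h (limma adjusted p = 0.00144) and 1.66 ± 0.20 at 24 h (4.17e-06), and from 24 to 72 h it fell by 1.10 ± 0.20 (0.000703).

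Col4a2 signal was 8.64, 8.13, 8.31 and 8.41 in sham and 9.45, 9.84, 9.41 and 9.45 at 6 h. It was 9.82, 9.54, 9.88 and 9.52 at 24 h and 9.02, 8.66, 8.83 and 9.03 at 72 h. Col4a2 stood near its highest level by 6 h, with a rise of 1.17 ± 0.15 (limma adjusted p = 1.47e-05), against 1.32 ± 0.15 at 24 h (3.75e-06). Between 6 and 24 h Col4a2 differed by 0.15 ± 0.15 (0.503), whereas Col4a1 rose further by 0.71 ± 0.20 (0.00994). Without 24 h replicate 16 and 72 h replicates 21 and 23 the latter became 0.57 (0.0585). From 24 to 72 h Col4a2 fell by 0.81 ± 0.15 (0.00128), a call lost under the poly-A spike-ins (-0.52, 0.0778).

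At 72 h what was left of the rise in this pair was close to the threshold. Col4a1 was 0.56 ± 0.20 above sham (limma adjusted p = 0.0477), and the call was lost under quantile normalization (0.39, 0.149), under median centring (0.45, 0.0865) and when any of 10 single arrays was left out. These were sham replicates 2, 3 and 4, 6 h replicates 7 and 10, 24 h replicates 14 and 15, and 72 h replicates 20, 21 and 23, with changes of 0.42 to 0.61 and adjusted p from 0.0503 to 0.159. Col4a2 was 0.51 ± 0.15 above sham (0.022), and lost its call under median centring (0.40, 0.0626) and without sham replicate 3 (0.43), sham replicate 4 (0.49), 72 h replicate 20 (0.47) or 72 h replicate 23 (0.46), with adjusted p from 0.0551 to 0.0799.

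The other type IV chains, which form trimers known from kidney, lung and other specialised basement membranes, were called in none of the 6 comparisons, and their group means lay below background. Col4a3 signal was 6.03, 6.50, 5.70 and 7.30 in sham and 5.78, 4.95, 4.37 and 6.26 at 24 h, a difference of -1.04 ± 0.39 (limma adjusted p = 0.0536) with overlapping arrays. It passed as lower under quantile normalization (-1.07, 0.0443), median centring (-1.11, 0.0351) and poly-A centring (-1.13, 0.0444), and not under the hybridization spike-ins (-0.73, 0.172). Leaving out single arrays took it from -0.71 (0.201, without 24 h replicate 16) to -1.35 (0.0119, without 24 h replicate 17). Col4a4 changed by -0.50 ± 0.20 at 72 h (0.0803). It passed under median centring (-0.60, 0.0277) and without sham replicate 2 (-0.67, 0.0197), and was 0.00 under the hybridization spike-ins, -0.31 under poly-A centring and -0.31 without sham replicate 5. Col4a5 and Col4a6 had changes between -0.26 and 0.25 over the 3 times.

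In the comparison of 72 h with 24 h, single chains were called in both directions. In it, 11 chains were higher and 2 lower, beside 6.85% and 6.07% of all genes, and the 2 that were lower were Col4a1 and Col4a2. Under the poly-A spike-ins the split was 17 and 1, with Col4a2 lost, and under the other 3 scalings it was 11 and 2. The other type IV chains did not pass, with changes of 0.94 for Col4a3, -0.20 for Col4a4, -0.17 for Col4a5 and 0.16 for Col4a6. The difference between classes was not tested. The 11 that were higher were Col1a1, Col1a2, Col3a1, Col5a1, Col5a2, Col24a1, Col6a1, Col6a2, Col6a3, Col6a6 and Col14a1, that is 6 of 11 fibrillar chains, 4 of 6 type VI chains and 1 fibril-associated chain. From 6 to 24 h, 9 were higher and 1 lower, beside 17.3% and 10.9%. The split was 9 and 3 under median centring, 19 and 0 under the hybridization spike-ins and 11 and 0 under the poly-A spike-ins. From 6 to 72 h, 14 were higher and 2 lower, beside 17.5% and 13.1%, with splits of 14 and 5, 31 and 0, and 26 and 0 under the same 3 scalings. Col4a2 was among the lower ones, by -0.66 ± 0.15 (limma adjusted p = 0.00281), but under the hybridization spike-ins it turned to 0.06 (0.759), and under the poly-A spike-ins it was -0.13 (0.587).

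**Figure D3:**
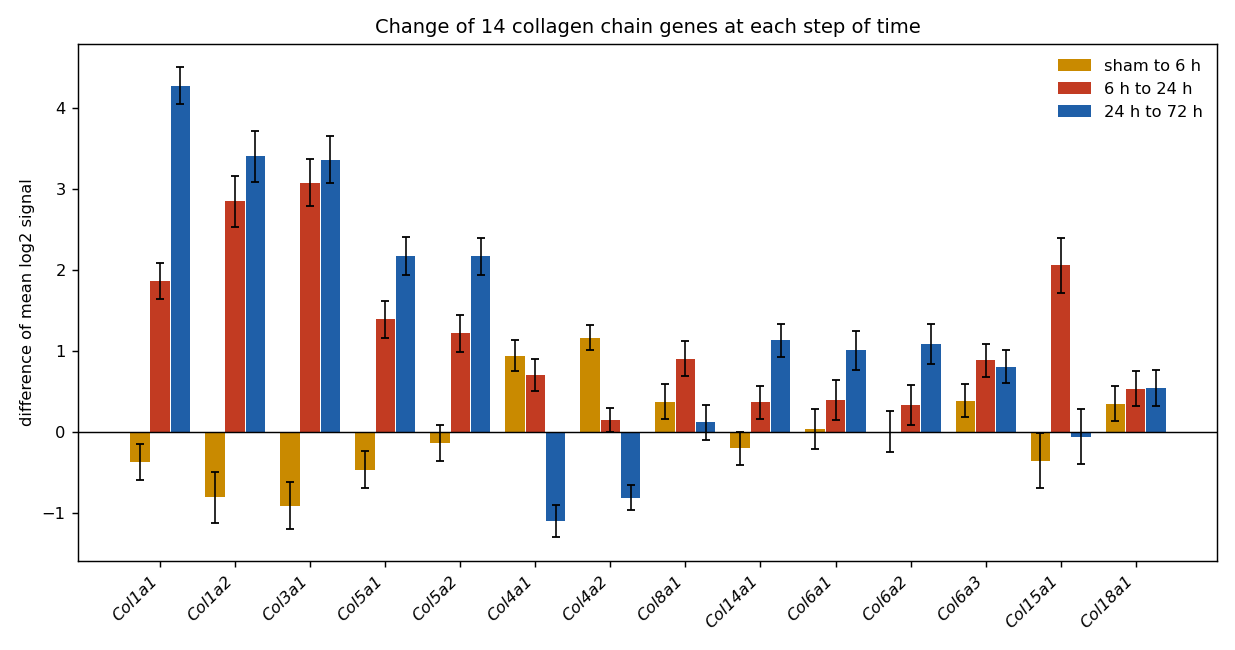
Difference of mean log2 signal (bars, with SE, 4 arrays per group) between consecutive groups for 14 chains: sham to 6 h, 6 to 24 h and 24 to 72 h. The last bar is the tallest for the fibrillar chains, up to 4.28 for Col1a1, and points down for Col4a1 and Col4a2, at -1.10 and -0.81, while for Col15a1 nearly all of the rise is in the middle bar, at 2.06.

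Type VI collagen is assembled from an alpha 1, an alpha 2 and 1 further chain, mostly alpha 3, and anchors basement membranes to the fibres around them. Col6a3 rose at 24 h and the other 2 by 72 h. Col6a3 signal was 6.90, 6.85, 6.96 and 7.03 in sham, 7.40, 7.16, 7.76 and 6.97 at 6 h, 8.83, 7.87, 7.88 and 8.27 at 24 h, and 9.18, 8.75, 8.99 and 9.15 at 72 h. Every 24 h and 72 h array lay above every sham and 6 h array. The rise was 1.28 ± 0.20 at 24 h (limma adjusted p = 9.01e-05) and 2.08 ± 0.20 at 72 h (3.71e-07), and from 24 to 72 h it was 0.81 ± 0.20 (0.0105), which became 0.77 (0.105) without 24 h replicate 16 and 72 h replicates 21 and 23.

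Col6a1 signal was 7.18, 7.31, 7.22 and 7.87 in sham, 7.40, 7.92, 7.50 and 6.92 at 6 h, 8.03, 7.63, 7.59 and 8.10 at 24 h, and 9.59, 8.39, 8.81 and 8.60 at 72 h. Col6a2 signal was 9.10, 8.83, 9.30 and 9.42 in sham, 9.16, 9.35, 9.13 and 9.06 at 6 h, 9.78, 8.97, 9.13 and 10.15 at 24 h, and 11.27, 10.09, 10.54 and 10.50 at 72 h. For both genes the 24 h arrays overlapped sham and the 72 h arrays did not, and 72 h replicate 20 was the highest array of each. At 24 h Col6a1 changed by 0.44 ± 0.24 (limma adjusted p = 0.211) and Col6a2 by 0.34 ± 0.25 (0.352). At 72 h they rose by 1.45 ± 0.24 (0.000227) and 1.44 ± 0.25 (0.000285). Under the hybridization spike-ins Col6a1 passed at 24 h as well (0.75, 0.0354).

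Among the chains that can replace alpha 3, Col6a6 was higher at 72 h by 0.75 ± 0.24 (limma adjusted p = 0.031) at a mean of 5.41, below background. Its call was lost under median centring (0.64, 0.0574) and without sham replicate 2 (0.71, 0.0738), sham replicate 3 (0.62, 0.105), 72 h replicate 20 (0.67, 0.0929) or 72 h replicate 22 (0.58, 0.106). Col6a4 and Col6a5 were not called, with 72 h changes of -0.39 and 0.24.

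Of the network-forming types, Col8a1 rose and its partner Col8a2 did not pass the test. Type VIII collagen is a short-chain type made by vascular cells and known from remodelling arteries. Col8a1 signal was 6.83, 6.44, 6.36 and 7.24 in sham, 6.89, 7.20, 7.13 and 7.17 at 6 h, 8.47, 7.72, 7.75 and 8.09 at 24 h, and 8.28, 7.84, 7.86 and 8.53 at 72 h. All 24 and 72 h arrays lay above all sham and 6 h arrays. The rise was 1.29 ± 0.21 at 24 h (limma adjusted p = 0.000135) and 1.41 ± 0.21 at 72 h (6.76e-05), from a sham mean of 6.72, just below background. Col8a2 had arrays between 7.72 and 8.23 in sham and between 7.61 and 8.33 at 72 h, with changes of -0.05, -0.24 and -0.11 at the 3 times. Col10a1, the hypertrophic cartilage chain, had no call against sham. It was the chain called lower at 24 h than at 6 h (-0.69 ± 0.21, 0.0205) and, with Col4a2, at 72 h than at 6 h (-0.82 ± 0.21, 0.00602), with every array below background. The first of these calls was lost without 6 h replicate 7 (-0.61, 0.0647), 6 h replicate 10 (-0.56, 0.0766) or 24 h replicate 17 (-0.53, 0.071) and under quantile normalization (-0.58, 0.0525), and both were lost under the spike-in scalings.

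Fibril-associated collagens sit on the surface of fibrils and space them, and of the 8 measured only Col14a1 was called. Its signal was 5.63, 5.98, 6.03 and 5.61 in sham, 5.55, 5.80, 5.81 and 5.29 at 6 h, 5.81, 5.81, 5.72 and 6.61 at 24 h, and 7.51, 6.79, 7.24 and 6.95 at 72 h. The 4 arrays at 72 h were the only ones above background, and 24 h replicate 17 stood apart from the other 24 h arrays. Col14a1 changed by 0.17 ± 0.20 at 24 h (limma adjusted p = 0.597) and rose by 1.31 ± 0.20 at 72 h (0.000103). Counted from background, the 72 h mean was at least 1.28-fold higher. The other 7, which are Col9a1, Col9a2, Col9a3, Col16a1, Col19a1, Col20a1 and Col22a1, had changes between -0.33 and 0.35 over the 3 times. Of these 7 only Col16a1 reached background, with group means of 7.40 to 7.79.

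Multiplexins are basement membrane collagens with interrupted helices, and the end of the Col18a1 chain is known as endostatin. Col15a1 signal was 6.68, 6.02, 6.23 and 7.75 in sham, 6.14, 6.98, 6.13 and 6.04 at 6 h, 8.85, 8.02, 8.48 and 8.19 at 24 h, and 8.82, 7.58, 8.03 and 8.90 at 72 h. Sham replicate 5 was the highest of the widely spread sham arrays and lay above 72 h replicate 21, so sham and 72 h overlapped. Col15a1 rose by 1.71 ± 0.34 at 24 h (limma adjusted p = 0.00084) and 1.66 ± 0.34 at 72 h (0.00142), and between these times it differed by -0.05 ± 0.34 (0.961). Its sham and 6 h means, 6.67 and 6.32, lay below background.

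Col18a1 signal was 5.43, 5.41, 5.39 and 5.35 in sham, 5.75, 5.88, 5.99 and 5.37 at 6 h, 5.95, 6.62, 6.69 and 5.89 at 24 h, and 6.91, 6.93, 6.21 and 7.29 at 72 h. Sham was tight and below background, and 3 of 4 arrays at 72 h lay above background. The rise was 0.89 ± 0.22 at 24 h (limma adjusted p = 0.00446) and 1.44 ± 0.22 at 72 h (7.33e-05), with a 72 h mean at least 1.05-fold above background. The steps from 6 to 24 h (0.54 ± 0.22, 0.0727) and from 24 to 72 h (0.55 ± 0.22, 0.12) did not pass singly.

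**Figure D4:**
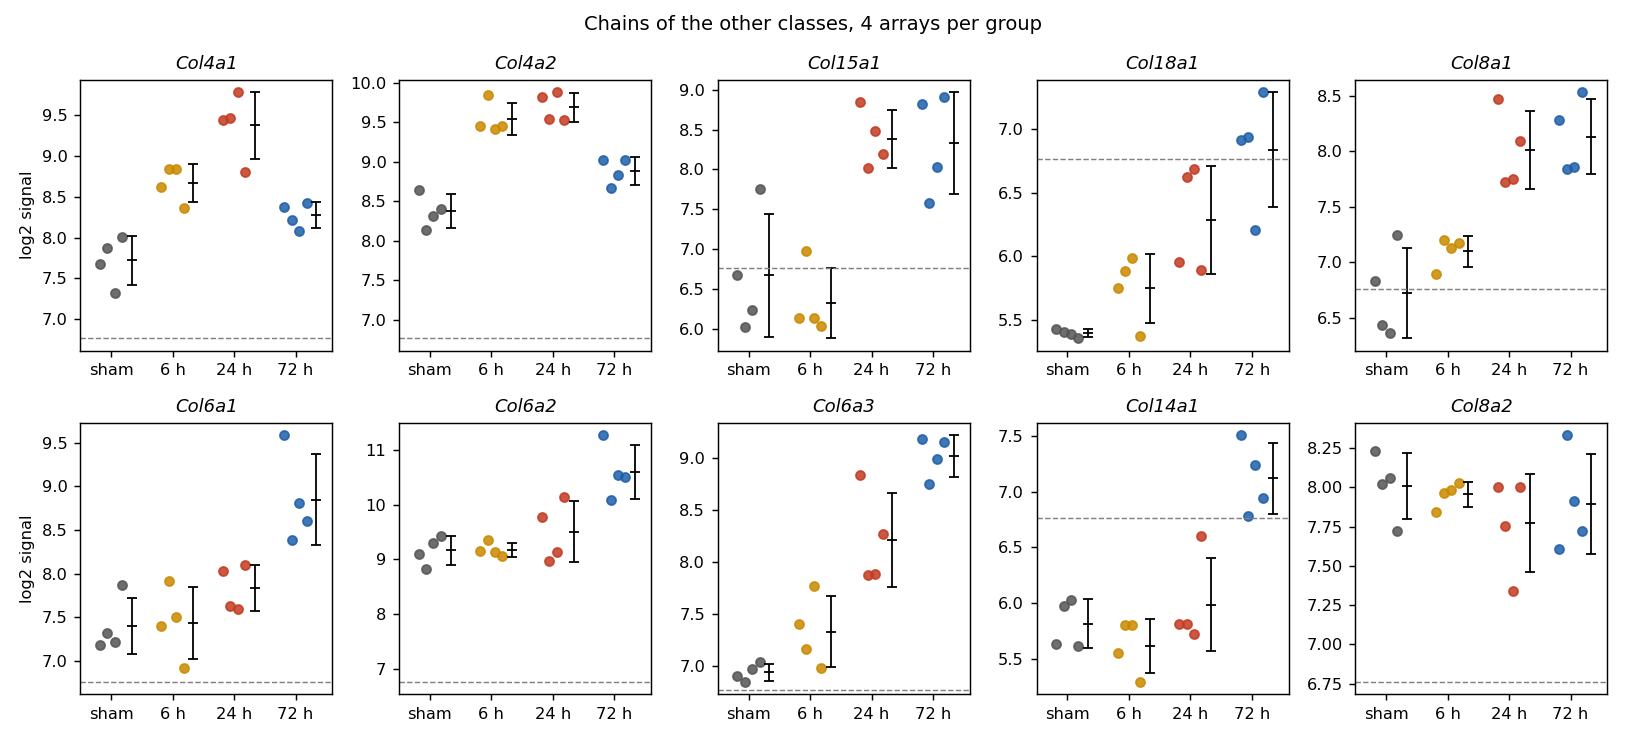
Log2 signal of 10 chains of the basement membrane, multiplexin, network, beaded filament and fibril-associated classes on each array (points, 4 per group, each panel with its own axis), with group mean and SD in black and the background level of 6.76 as a dashed line. The Col4a1 and Col4a2 points rise by 6 h and come down at 72 h, the Col6a1, Col6a2 and Col14a1 points rise at 72 h, and the Col8a2 points show no step.

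The transmembrane chains Col13a1, Col17a1, Col23a1 and Col25a1 and the remaining Col26a1 and Col28a1 were called at no time. Their changes ran from -0.35 to 0.16, and only Col28a1 touched background, with a 6 h mean of 6.76.

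Whether chains of 1 trimer moved by equal amounts was asked of their difference within each array, in 18 two-sided exact permutation tests (6 pairs at 3 times against sham, 4 arrays against 4). None passed after adjustment over the 18, and since the smallest p that 4 against 4 arrays can give is 0.0286, most of the 18 would have had to reach it for any to pass. That smallest p was reached by 4 tests, each with an adjusted p of 0.129. Col1a1 minus Col1a2 changed by 0.43 at 6 h (exact p = 0.286), by -0.55 at 24 h and by 0.32 at 72 h. Col6a1 minus Col6a3 changed by -0.84 at 24 h. Col8a1 minus Col8a2 changed by 1.52 at 24 h and by 1.53 at 72 h, the latter with an exact p of 0.0571. For Col4a1 minus Col4a2 the changes were -0.22, 0.34 and 0.05, and for Col6a1 minus Col6a2 they were 0.03, 0.10 and 0.02.

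Covariation between hearts of a group was described by correlating pairs of chains over 16 arrays after subtracting the group means. Pearson's r was 0.834 for Col1a1 with Col1a2, and the Col3a1 chain, which shares no trimer with them, had 0.832 with Col1a2 and 0.745 with Col1a1. It was 0.783 for Col6a1 with Col6a2, 0.522 for Col5a1 with Col5a2, 0.443 for Col3a1 with its neighbour Col5a2 and 0.405 for Col4a1 with Col4a2. For Col8a1 with Col8a2 it was -0.121. Genes on an array share its RNA and its scaling, so these values describe the arrays.

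The genes that modify, cross-link and clear collagen were set beside the chains. As above, 7.92%, 13.8% and 11.5% of all genes were called higher and 12.3%, 12.3% and 10.3% lower at 6, 24 and 72 h, against which the counts in these lists are to be read. Of 20 measured genes for synthesis and secretion, 1, 8 and 10 were higher (5%, 40% and 50%) and 3, 3 and 0 lower at the 3 times, with median changes of -0.28, 0.27 and 0.61. The 6 h shares were near those of all genes. At 72 h the largest were Creb3l1, a transcription factor of secretory cells (2.23 ± 0.21, limma adjusted p = 3.2e-07, from below background, at least 2.84-fold), Serpinh1, the collagen chaperone HSP47 (1.73 ± 0.22, 9.22e-06), P4ha3, a prolyl hydroxylase subunit that stayed below background at a 72 h mean of 6.02 (1.69 ± 0.19, 3e-06), and Ppib, a prolyl isomerase (1.55 ± 0.19, 7.57e-06). Serpinh1 arrays lay at 11.38 to 11.83 in sham, 13.14 to 13.99 at 24 h and 12.95 to 13.66 at 72 h, so the last 2 groups overlapped where the type I chains rose further.

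Of 10 genes for propeptide cleavage and cross-linking, 1, 5 and 5 were higher and 2, 1 and 1 lower, with median changes of 0.12, 0.85 and 1.40. Lox, which oxidises lysines so that fibres can cross-link, rose by 2.70 ± 0.24 at 6 h (limma adjusted p = 1.23e-07), when no fibrillar chain was called higher, by 2.95 ± 0.24 at 24 h (7.02e-08) and by 6.07 ± 0.24 at 72 h (4.64e-12). Its arrays were 5.67 to 6.69 in sham, 8.54 to 9.09 at 6 h, 8.74 to 9.39 at 24 h and 11.43 to 12.63 at 72 h. Sham lay below background, and counted from background the means were at least 4.08-fold higher at 6 h, 4.84-fold at 24 h and 42-fold at 72 h. At 72 h Loxl3 rose by 4.04 ± 0.29, Loxl1 by 2.69 ± 0.21 and Bmp1, the enzyme that trims the C-terminal propeptide, by 2.54 ± 0.18. The Bmp1 sham mean of 6.73 lay just below background.

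Among 7 genes for collagenases and uptake, 2, 3 and 5 were higher and 1, 1 and 0 lower, with median changes of 0.18, 0.47 and 1.55. At 72 h the membrane-bound collagenase Mmp14 rose by 4.15 ± 0.36 from a sham mean of 6.43, below background. Also at 72 h, the gelatinase Mmp2 rose by 1.68 ± 0.32 and the uptake receptor Mrc2 by 1.55 ± 0.21. The neutrophil collagenase Mmp8 was instead highest at 6 h, and its later means stayed above that of sham. Its group means were 3.83 in sham, 8.09 at 6 h, 5.95 at 24 h and 5.72 at 72 h, of which only the 6 h mean was above background. It rose by 4.26 ± 0.48 at 6 h (limma adjusted p = 2.66e-06) and fell by 2.37 ± 0.48 from 6 to 72 h (0.000867). Among 7 receptors, 2, 3 and 4 were higher and 1, 0 and 0 lower, with median changes of 0.11, 0.39 and 0.51. At 72 h Lair1, an inhibitory receptor of leukocytes, rose by 2.38 ± 0.28 from below background, at least 4.05-fold, and Ddr2, a receptor kinase of fibroblasts, by 0.51 ± 0.14. The integrin chains Itga2 and Itga11 rose by 0.88 ± 0.21 and 0.57 ± 0.19 with every group mean below background.

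The partners of type IV collagen in the basement membrane were counted in the same way. Of 14 laminin, nidogen and proteoglycan genes, 0 were higher at 6 h and 0 at 24 h by limma (1 and 0 at an unadjusted p under 0.05), with 1 and 2 lower, and 4 were higher (28.6%) and 1 lower at 72 h. Median changes were -0.20, -0.10 and 0.25. Between 6 and 24 h 4 were higher and 2 lower (28.6% and 14.3%), beside 17.3% and 10.9% of all genes. The difference in course from Col4a1 and Col4a2 was not tested. At 72 h, when Col4a1 and Col4a2 had come down, Nid1 rose by 1.15 ± 0.17 (limma adjusted p = 5.75e-05), Lamc1 by 0.94 ± 0.23 (0.00556) and Nid2 by 0.92 ± 0.18 (0.00101, from below background, at least 1.64-fold), while Lama3 fell by 0.56 ± 0.20 (0.0479) with every group mean below background.

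Markers of the cell types that make or surround collagen were counted as well. Their counts are to be read beside the 7.92%, 13.8% and 11.5% of all genes called higher at 6, 24 and 72 h. The shares called lower were 12.3%, 12.3% and 10.3%. Of 7 fibroblast markers, of which Ddr2 is also a receptor above, 1, 2 and 6 were higher and 1, 2 and 0 lower, and their mean over the list lay between 12.05 and 12.29 on the sham arrays, 11.83 and 12.20 at 6 h, 11.18 and 11.98 at 24 h, and 12.88 and 13.29 at 72 h. At 24 h every array thus lay below every sham array in this mean, but the markers went both ways. Their changes at 24 h ran from -1.81 for Dpep1 to 0.88 for Lum, and 2 of the 7, Lum and Ddr2, were above 0. Of 6 activated fibroblast markers, of which Lox and Fap are also on the lists above, 3, 4 and 5 were higher. Their list means were 8.00 to 8.28 in sham, 9.05 to 9.32 at 6 h, 10.36 to 10.50 at 24 h and 12.16 to 12.94 at 72 h. This list was uneven, with Tnc going from a mean of 5.04 in sham to 12.50 at 24 h. Acta2 group means stayed between 15.19 and 15.52, and Fap means were 8.19 in sham, 7.73 at 6 h and 7.75 at 24 h. Of 5 leukocyte markers, 2, 5 and 5 were higher, with list means of 8.25 to 8.73 in sham, 9.16 to 9.71 at 6 h, 10.26 to 11.89 at 24 h and 11.02 to 11.73 at 72 h. Of 7 endothelial markers 1, 0 and 0 were higher and 2 lower at each time. Of 8 smooth muscle and pericyte markers 0, 1 and 1 were higher and 3, 4 and 3 lower, and none of 6 mesothelial markers reached background. Of 8 cardiomyocyte markers 0, 3 and 2 were lower. The part of any of these cell types in the collagen changes was not tested.

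The atrial transcript Myl4 differed between hearts of 1 group, at 15.22 on 24 h replicate 16 against 7.34 to 7.93 on the other 24 h arrays, and at 9.76 and 9.44 on 72 h replicates 21 and 23 against 7.69 and 7.75. Without these 3 arrays all 11 calls at 24 h and 13 of 16 at 72 h were still made, the exceptions being Col4a1 (0.51, limma adjusted p = 0.195), Col4a2 (0.55, 0.0779) and Col24a1 (0.68, 0.128).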

How the data were processed

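RNA from 16 hearts (sham and 6, 24 and 72 h, 4 each) was measured on Affymetrix arrays, 1 heart per array. The deposited log2 values were made by the authors with Affymetrix Expression Console, per the submitters' processing notes (no source used here gives its version, summarization or filters). No log base is named, and base 2 was assumed. The values ran from 1.83 to 19.82, above a scanner's range, so folds are on the authors' scale. Array medians were 5.84 to 5.95, and the values were used as deposited. Of 28846 probe sets, 19572 had 1 platform gene symbol and, keeping the brightest per gene, 19505 genes remained. The design text names another array and the series title other hours than the labels, and the probe identifiers and the labels were followed.

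Group means were fitted with limma 3.58.1 (R 4.3.3, lmFit and eBayes, 12 residual degrees of freedom). No filter on dim genes was used. The median SE of a change was 0.18, and the number of arrays limits the precision. Members and gene lists (117 of 127 listed genes measured) were chosen with earlier results of these data known. Array values are given for 15 chains fixed by name (14 measured) and for up to 3 called chains per class that reach background, and up to 4 genes are named per list. No pathway or marker list was given a set test. Alternatives were 4 other scalings, averaging of probe sets, 2 filters, 3 variance or weight settings, fits of 2 groups, leaving out arrays, and a 2-fold minimum. Recovery of known changes was tested on simulated data. Figures were drawn with matplotlib 3.10.9.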

Additional observations from a re-analysis of the deposited data

Results flagged for a closer look

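Single arrays stood apart in 4 of the 56 sets of 4 arrays examined for the 14 chains given by array, by Dixon's criterion for 4 values which chance meets about 1 time in 20. Col1a2 was 9.47 on sham replicate 5, against 8.70 to 8.83 on the other sham arrays. Col4a2 was 9.84 on 6 h replicate 8, against 9.41 to 9.45. Col15a1 was 6.98 on the same 6 h array, against 6.04 to 6.14. Col14a1 was 6.61 on 24 h replicate 17, against 5.72 to 5.81.

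Col3a1 was called in opposite directions against sham, lower at 6 h and higher later, and the difference between the times was itself past the threshold, at 3.08 from 6 to 24 h and 6.45 from 6 to 72 h (limma adjusted p = 2.96e-07 and 1.41e-11).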

How the results depend on the processing

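Of the 69 member calls in the 6 comparisons, 58 were made under every alternative that tested the gene, with the 2-fold minimum left aside. They were 2 of 3 at 6 h, 11 of 11 at 24 h, 12 of 16 at 72 h, 8 of 10 for 24 against 6 h, 11 of 13 for 72 against 24 h and 14 of 16 for 72 against 6 h. The filter at the median gene left out Col5a1 and Col5a2, and both filters left out Col6a6, Col10a1 and Col24a1. Those settings could neither keep nor lose the calls of these genes. Counts that moved by over 1.5 times follow, and where no construction explains them the cause was not tested. Quantile normalization gave 1 lower at 24 h and 4 lower for 72 against 6 h. Median centring gave 1 lower at 24 h, 1 lower at 72 h, 3 lower for 24 against 6 h and 5 lower for 72 against 6 h. The hybridization spike-ins gave 4 lower at 6 h, 26 higher at 72 h, 19 higher and 0 lower for 24 against 6 h, and 31 higher and 0 lower for 72 against 6 h, where Col4a2 reversed to 0.0603. The poly-A spike-ins gave 7 lower at 6 h, 1 lower at 24 h, 0 lower for 24 against 6 h, 17 higher and 1 lower for 72 against 24 h, and 26 higher and 0 lower for 72 against 6 h. The filter at the negative controls, which tests fewer genes, gave 0 lower for 24 against 6 h and 1 lower for 72 against 6 h, and the filter at the median gene gave 1 lower at 24 h, 0 lower for 24 against 6 h, and 7 higher for 72 against 24 h and 1 lower for 72 against 6 h. The trend setting gave 1 lower at 24 h, and array weights 2 lower at 6 h. Without the 3 arrays with raised Myl4, 1 was lower for 72 against 6 h. A 2-fold minimum gave 1 higher and 0 lower at 6 h, 0 lower for 24 against 6 h, 1 lower for 72 against 24 h and 0 lower for 72 against 6 h. Leaving out each array in turn gave 0 to 2 lower at 6 h, 0 to 2 at 24 h, 0 to 1 at 72 h and 0 to 3 for 24 against 6 h. No paired analysis was possible because no 2 groups share replicate numbers. Signal near the negative controls limits 24 of the 42 chains, whose missing calls do not show that they were unchanged.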
